A study of Mus musculus with 319 samples.

Results

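The genes described here were sought for their part in cell division, but the rule goes by symbol and also takes in genes of other roles. They were taken as all probes whose symbol in the platform table begins with Ccna, Ccnb, Ccne, Cdc2, Cdc4, Cdc6, Mcm, Kif, Cenp, Bub or Aurk. That rule found 97 probes of 74 genes among the 23382 probes of the array, of which those with 1 symbol name 11631 genes, and all 97 had values on enough arrays to be tested. RNA came from muscle of F2 mice of both sexes, bred from C57BL/6J and C3H/HeJ parents that both carry the ApoE null allele, so every animal lacked apolipoprotein E. The mice ate a high-fat Western diet from week 8 to week 24 of age, and each of the 319 2-colour arrays set the RNA of 1 animal, in Cy3, against 1 pool of RNA from all animals, in Cy5. The labels name no treatment group, so the arrays form 1 group, with each array taken as 1 animal. A pair of arrays carries the same animal number, so they may come from 1 animal. Values are log2 ratios of an animal over the pool, so 0 is the level of the pool and 1 is a doubling.

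Adult muscle fibres are post-mitotic, and dividing cells in a muscle sample are mostly not fibre nuclei. In a dividing cell the Mcm proteins load onto DNA and form the helicase that opens replication origins. A and B cyclins then activate the cyclin-dependent kinases of S phase and mitosis, centromere proteins build the kinetochore, Bub proteins hold the checkpoint until chromosomes are attached, and Cdc20 releases sister chromatids by switching on the ubiquitin ligase APC/C. Lymph nodes and bone marrow both hold dividing cells. The rule asks which of these genes follow lymphoid arrays, marked by Cd79b (a subunit of the B cell receptor), which follow marrow arrays, marked by Ngp (neutrophilic granule protein, made by maturing granulocytes), and which follow neither. In bulk RNA, more cells of a type and more RNA per cell cannot be told apart.

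Promoters of members that followed a marker are shown first, because the sequences near their start sites share short elements. The promoter table of RefSeq (GRCm38.p6) covers 250 bases before and 50 bases after each start, and it held 18 promoters for 17 of the 19 genes that followed a marker. On either strand, CCAAT was in 16 of these 18 (88.9%), against 37.4% of all 32851 promoters of the same 300 bases. TTTGAA or TTCGAA, the core of the cell cycle homology region, was in 13 of 18 (72.2%, against 19.2% of all promoters). The E2F-type elements TTTGGCG or TTTCGCG were in 5 of 18 (27.8%, against 2.4%). Members with a cell cycle role that followed neither marker had 27 promoters, of which 20 (74.1%) held CCAAT, 7 (25.9%) held TTTGAA or TTCGAA and 5 (18.5%) held TTTGGCG or TTTCGCG. The other members had 24 promoters, of which 4 (16.7%) held CCAAT, 3 (12.5%) held TTTGAA or TTCGAA and 1 (4.2%) held TTTGGCG or TTTCGCG. A match describes the letters and does not show a bound site. The TTTGGCG and TTTCGCG matches can overlap each other, as they do once in Mcm6.

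Below, 120 bases directly before the start of 5 genes are written from 5′ to 3′ on the strand of the gene, with matches to the 3 motifs, on either strand, in capitals (a match to CCAAT on the other strand reads ATTGG, one to TTTGAA reads TTCAAA). Ccnb2 was chosen for its 3 CCAAT elements, Cdc20, Kif11 and Kif22 for a CCAAT and a TTTGAA close together, and Mcm6 for its 3 E2F-type matches.
Ccnb2 (chr9:70421555-70421674, minus strand): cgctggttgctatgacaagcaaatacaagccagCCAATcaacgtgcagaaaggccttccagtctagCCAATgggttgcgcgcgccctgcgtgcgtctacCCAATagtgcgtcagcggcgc
Cdc20 (chr4:118437344-118437463, minus strand): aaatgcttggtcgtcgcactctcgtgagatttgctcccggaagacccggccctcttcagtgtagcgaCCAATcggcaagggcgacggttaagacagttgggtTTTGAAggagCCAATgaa
Kif11 (chr19:37376262-37376381, plus strand): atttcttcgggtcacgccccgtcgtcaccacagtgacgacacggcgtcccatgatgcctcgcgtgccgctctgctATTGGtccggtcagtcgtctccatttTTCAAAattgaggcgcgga
Kif22 (chr7:127042421-127042540, minus strand): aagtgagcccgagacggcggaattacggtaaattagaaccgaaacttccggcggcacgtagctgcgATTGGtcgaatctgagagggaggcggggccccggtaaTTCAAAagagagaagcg
Mcm6 (chr1:128359706-128359825, minus strand): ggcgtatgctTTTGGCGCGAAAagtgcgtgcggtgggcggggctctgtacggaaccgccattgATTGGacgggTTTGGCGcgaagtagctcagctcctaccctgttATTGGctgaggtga
In Cdc20, Kif11 and Kif22 the TTTGAA element began at position -18, -19 and -17 from the start. In Ccnb2 the CCAAT elements began at -87, -54 and -21, which spaces them 33 bases apart.

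The markers sorted the arrays, Cd79b more sharply than Ngp. Cd79b lay between -0.15 and 2.73 (median 1.26) on 56 arrays and between -3.14 and -0.85 (median -2.29) on the other 263. Ngp lay between -1.11 and 4.99 (median 0.45) on 61 arrays and between -4.91 and -1.28 (median -3.44) on 258. Splitting at these gaps left 23 arrays above the Cd79b gap only, 28 above the Ngp gap only, 33 above both and 235 below both. The Cd79b gap was wide, while that of Ngp was narrow and cut a continuous run of values among arrays high in Cd79b. Among arrays low in Cd79b it was narrow too, with Ngp up to -1.30 below it and from -1.07 above it. These sets come from the data, so levels in them are given as a description without a test. Other B cell probes rose with Cd79b (9 of 9) and none with Ngp, and granulocyte probes rose with Ngp (10 of 11). Bone probes, such as Ibsp (bone sialoprotein), rose with Ngp too (3 of 4), but were not raised on every set above its gap. The mean of the 4 bone probes had a median of 0.71 (-0.91 to 4.09) on arrays above the Ngp gap only. On arrays above both gaps it was -1.01 (-1.81 to -0.30), no higher than the -0.78 on arrays below both. Of the 13 striated muscle genes listed, only Myog and Pax7, both regulators of muscle precursors, had a named probe, and neither was above its pool level on the arrays high in Cd79b by median (Myog -0.16 and Pax7 -0.16 on arrays above the Cd79b gap only). The direction of the ratio, an animal over the pool, came from the Y-linked gene Eif2s3y, whose median was 1.08 on 155 arrays and -5.62 on the other 164, against 1.04 for a gene carried by only those 155. Pairs of arrays ran from r = -0.638 to 0.891, and 5078 of 50721 pairs lay under -0.3. Turning all signs would change no slope on a marker, because marker and member turn together.

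**Figure D1:**
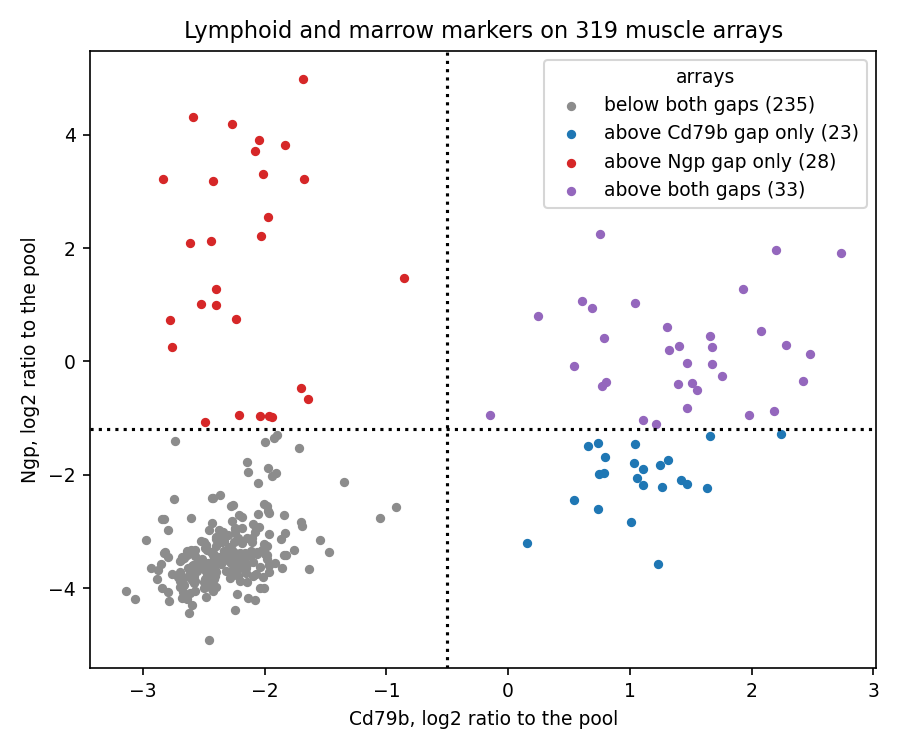
Log2 ratio of Cd79b (horizontal axis) and Ngp (vertical axis) to the pool on each of the 319 arrays. Dotted lines mark the gaps, which leave 23 arrays high in Cd79b only (blue), 28 high in Ngp only (red), 33 high in both (purple) and 235 low in both (grey).

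Which members followed a marker was tested with limma on all arrays, with the log2 ratio of each probe fitted on Cd79b and Ngp together. A slope is the change in log2 ratio per SD of the marker with the other marker held fixed (1 SD is 1.42 log2 units of Cd79b and 1.88 of Ngp). A probe was called where the Benjamini-Hochberg adjusted p over 23188 probes was under 0.05 and the partial r, the correlation left after the other marker is taken out, was at least 0.3. With Cd79b, 20 member probes of 19 genes rose (20.6%, against 12% of all probes) and 16 fell (16.5%, against 22.9%). With Ngp, 8 rose (8.25%, against 0.535% of all probes) and 0 fell (against 0%), although 7 members (7.22%, against 13.5% of all probes) had a negative Ngp slope at an unadjusted p under 0.05 by limma. All 8 that rose with Ngp also rose with Cd79b, so 8 followed both (against 0.198% of all probes), none followed Ngp alone (against 0.336%) and 77 followed neither upward (79.4%, against 87.7%). The median Cd79b slope was -0.0056 over the members and -0.0294 over all probes, and the median Ngp slope was 0.0061 and 0.001. Subtracting each array's median turned the split of all probes from 2779 higher and 5313 lower (12% and 22.9%) to 3454 higher and 2914 lower (14.9% and 12.6%). Under it 24 members rose and 9 fell with Cd79b, and all 20 that rose without it were among the 24.

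The calls were also counted by role. All 20 probes that rose with Cd79b were among the 64 probes (45 genes) of cyclins, replication licensing, mitotic kinases and phosphatases with the APC/C, kinetochore and checkpoint, and mitotic kinesins. The other 33 probes are all kinesins not listed as mitotic, the group around the GTPase Cdc42 and a pair of unrelated matches. They held no probe called higher (against 12% of all probes) and 11 called lower (against 22.9%). Both of Cdc42, 2 of the 33 had a positive slope at an adjusted p under 0.05 by limma but a partial r below 0.3. By role, 2 of 8 cyclin probes, 5 of 11 for replication licensing, 3 of 15 for kinases, phosphatases and APC/C, 5 of 19 for kinetochore and checkpoint and 5 of 11 for mitotic kinesins rose with Cd79b. With Ngp the counts were 2, 0, 2, 2 and 2 in the same order. Over all probes, 12% rose with Cd79b and 0.535% with Ngp.

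**Figure D2:**
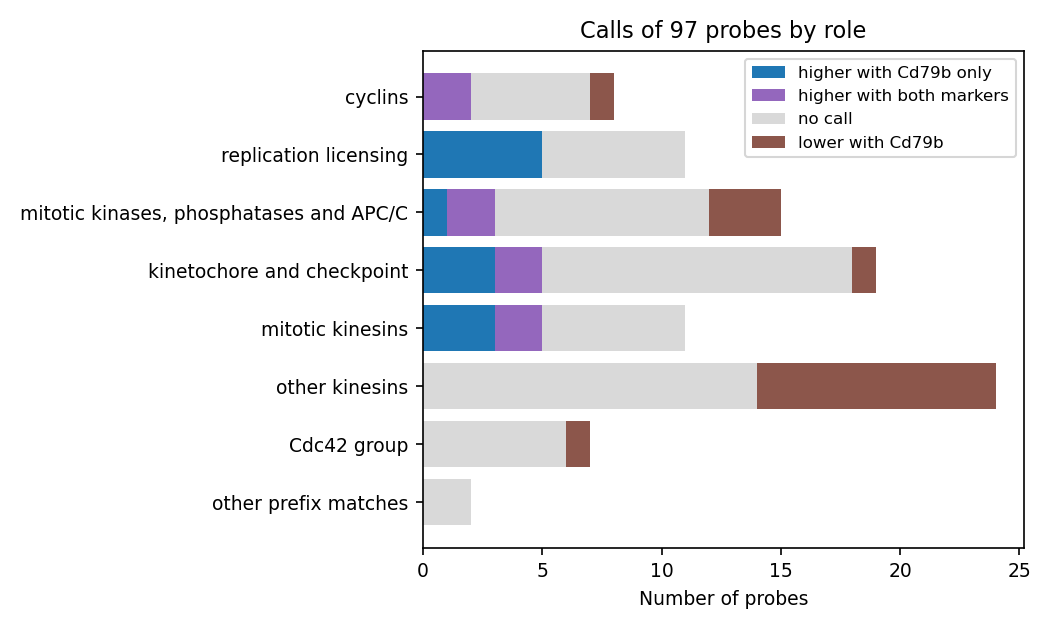
Number of probes (horizontal axis) in each role (vertical axis) that were called higher with Cd79b only (blue), higher with both markers (purple), lower with Cd79b (brown) or not called (grey). The other kinesins hold 10 of the 16 lower calls, and the 5 called probes for replication licensing are all blue.

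Among the cyclins, Ccna2, the cyclin of S phase and G2, ran from -0.31 to 2.21 (median 0.35) on arrays high in Cd79b only and from -0.12 to 1.62 (median 0.56) on arrays high in both. Its range was -1.04 to 1.14 (median -0.22) on arrays high in Ngp only and -1.45 to 0.61 (median -0.55) on arrays low in both. The ranges overlap, and the medians of both lymphoid sets lie above 0 while those of the others lie below. Its slope was 0.32 ± 0.02 (SE, adjusted p = 6.77e-40, limma) on Cd79b and 0.19 ± 0.02 (adjusted p = 3.39e-15) on Ngp. Ccnb2, a B-type cyclin of mitosis, lay from -0.38 to 2.07 (median 0.37) with Cd79b only and from -0.28 to 2.00 (median 0.65) with both. It spanned -1.14 to 1.16 (median -0.42) with Ngp only and -1.69 to 0.79 (median -0.76) on arrays low in both. The Ccnb2 slopes were 0.43 ± 0.02 on Cd79b (adjusted p = 1.16e-46, limma) and 0.19 ± 0.02 on Ngp (adjusted p = 2.27e-10). Of the other cyclin probes, 1 of 2 for Ccne2, a cyclin of the G1 to S transition, fell with Cd79b (slope -0.09 ± 0.01, adjusted p = 2.63e-10, limma). Ccna1, an A cyclin of the male germ line, and Ccnb3, a cyclin of meiosis, had no call.

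For replication licensing, 5 of 11 probes rose with Cd79b (45.5%, against 12% of all probes). None was called with Ngp over all arrays (against 0.535% of all probes called higher). Mcm6, a subunit of the replicative helicase, lay from -0.39 to 1.56 (median 0.43) on arrays high in Cd79b only and from -0.42 to 1.49 (median 0.65) on arrays high in both. On arrays high in Ngp only it ran from -1.21 to 0.28 (median -0.38), and on arrays low in both from -1.34 to 0.35 (median -0.56). On 22 of the 23 arrays high in Cd79b only and 32 of 33 high in both, Mcm6 lay above the 95th percentile of the arrays low in both. The Mcm6 slope was 0.42 ± 0.02 on Cd79b (adjusted p = 8.37e-64, limma) and 0.07 ± 0.02 on Ngp, where the adjusted p of 0.0147 came with a partial r of 0.199 and no call. The other subunits that rose were Mcm4 (0.23 ± 0.01), Mcm5 (0.19 ± 0.01), 1 of 2 probes of Mcm7 (0.10 ± 0.01) and Mcm2 (0.08 ± 0.01). Their Ngp slopes ran from 0.0032 for Mcm2 to 0.0335 for Mcm5. Both probes of Mcm3, the remaining subunit, had slopes of at most 0.0117 on either marker and no call. The Mcm2 call was the nearest to the limit in this role (partial r 0.311). Cdc6, which loads the helicase, Cdc45, which activates it, and Mcm8, a helicase of DNA repair, had no call.

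Cdc20 and Cdc25b led the regulators of mitosis. Cdc20 lay from -0.12 to 2.29 (median 0.42) on arrays high in Cd79b only and from -0.18 to 1.90 (median 0.63) on arrays high in both. It ran from -1.13 to 0.69 (median -0.56) on arrays high in Ngp only and from -1.13 to 0.78 (median -0.72) on arrays low in both. All 23 arrays of the first set and all 33 of the second exceeded the 95th percentile of the arrays low in both, against 9 of 28 high in Ngp only. The slope was 0.47 ± 0.02 on Cd79b (adjusted p = 1.72e-66, limma) and 0.12 ± 0.02 on Ngp (adjusted p = 7.89e-06), the latter with a partial r of 0.301, just past the limit, and lost without the 7 arrays of highest Ngp described below. A second Cdc20 probe rose with Cd79b only (0.11 ± 0.01), and the third had a slope of -0.04 ± 0.01 and no call. Cdc25b, the phosphatase that activates mitotic kinases, had medians of 0.42 with Cd79b only, 0.57 with both, -0.05 with Ngp only and -0.32 on arrays low in both. Its ranges were -0.14 to 1.34, -0.13 to 1.87, -0.45 to 0.57 and -0.65 to 0.33 in that order, and its slopes were 0.30 ± 0.01 on Cd79b (adjusted p = 1.01e-70, limma) and 0.08 ± 0.01 on Ngp (adjusted p = 4.63e-08). Cdc25a and Cdc25c of the same family had no call. Aurkc, an Aurora kinase of germ cells, had 5 probes, of which 2 fell with Cd79b (-0.07 ± 0.01 and -0.06 ± 0.01). Cdc26, an APC/C subunit, fell at 1 of 3 probes (-0.09 ± 0.01), while another had a slope of 0.18 ± 0.03 that missed the limit (partial r 0.282).

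At the kinetochore, Cenpe, the motor that carries chromosomes to the spindle equator, had a range of -0.35 to 2.22 (median 0.44) on arrays high in Cd79b only and -0.15 to 1.93 (median 0.67) on arrays high in both. With Ngp only it lay from -1.43 to 1.16 (median -0.54), and on arrays low in both from -2.22 to 0.72 (median -0.91). Its slopes were 0.51 ± 0.03 on Cd79b (adjusted p = 1.45e-53, limma) and 0.19 ± 0.03 on Ngp (adjusted p = 1.66e-09). A second Cenpe probe had no call (slope -0.0036 ± 0.0119 on Cd79b). Cenph, a protein of the inner kinetochore, ran from -0.10 to 1.56 (median 0.20) with Cd79b only, from -0.11 to 0.84 (median 0.32) with both, from -0.34 to 0.59 (median -0.04) with Ngp only and from -1.17 to 0.23 (median -0.19) on arrays low in both. It rose with Cd79b by 0.16 ± 0.01 (adjusted p = 1.34e-34, limma) and with Ngp by 0.08 ± 0.01 (adjusted p = 2.28e-09). Cenpa, the histone that marks centromeres, rose with Cd79b only (0.25 ± 0.01, adjusted p = 5.65e-52, limma), with medians of 0.22 on arrays high in Cd79b only, 0.42 with both, -0.27 with Ngp only and -0.32 on arrays low in both. Its ranges in these sets were -0.32 to 1.23, -0.35 to 1.23, -0.51 to 0.32 and -0.86 to 0.23. Cenpl, another inner kinetochore protein, and Bub1b, the checkpoint protein BubR1, each rose with Cd79b by 0.07 ± 0.01. Bub1, the checkpoint kinase, fell (-0.05 ± 0.01, partial r -0.311), and that call was lost after array medians were subtracted.

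Of the mitotic kinesins, Kif20b, which acts in cytokinesis, lay from -0.24 to 1.66 (median 0.31) on arrays high in Cd79b only, from -0.41 to 1.52 (median 0.67) with both, from -1.14 to 0.12 (median -0.48) with Ngp only and from -1.06 to 0.29 (median -0.51) on arrays low in both. It rose by 0.40 ± 0.02 with Cd79b (adjusted p = 3.43e-64, limma), and its Ngp slope of 0.04 ± 0.02 was not called (adjusted p = 0.101). Kif22, which pushes chromosome arms along the spindle, rose with both markers, by 0.29 ± 0.02 (adjusted p = 6.27e-38, limma) with Cd79b and 0.12 ± 0.02 (adjusted p = 5.74e-08) with Ngp. Its medians were 0.31 with Cd79b only, 0.51 with both, -0.12 with Ngp only and -0.39 on arrays low in both, over ranges of -0.38 to 1.58, -0.26 to 1.42, -0.93 to 0.89 and -1.11 to 0.67. Kif15, which helps keep the spindle bipolar, rose by 0.28 ± 0.02 (adjusted p = 1.62e-47, limma) and 0.12 ± 0.02 (adjusted p = 5.80e-10). The Kif15 medians were 0.36, 0.45, -0.06 and -0.38 in the same order, over -0.15 to 1.93, -0.15 to 1.67, -0.66 to 0.56 and -0.88 to 0.42. Kif11, the motor that separates spindle poles, rose with Cd79b only (0.23 ± 0.02), and its Ngp slope of 0.09 ± 0.02 stayed under the limit (partial r 0.207). Kifc5b, a minus-end motor whose sequence is close to that of Kifc1, rose at 1 of 2 probes (0.12 ± 0.02), and which of the copies that probe reads was not tested. Kif14, Kif18a, Kif20a and Kif4 had no call.

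**Figure D3:**
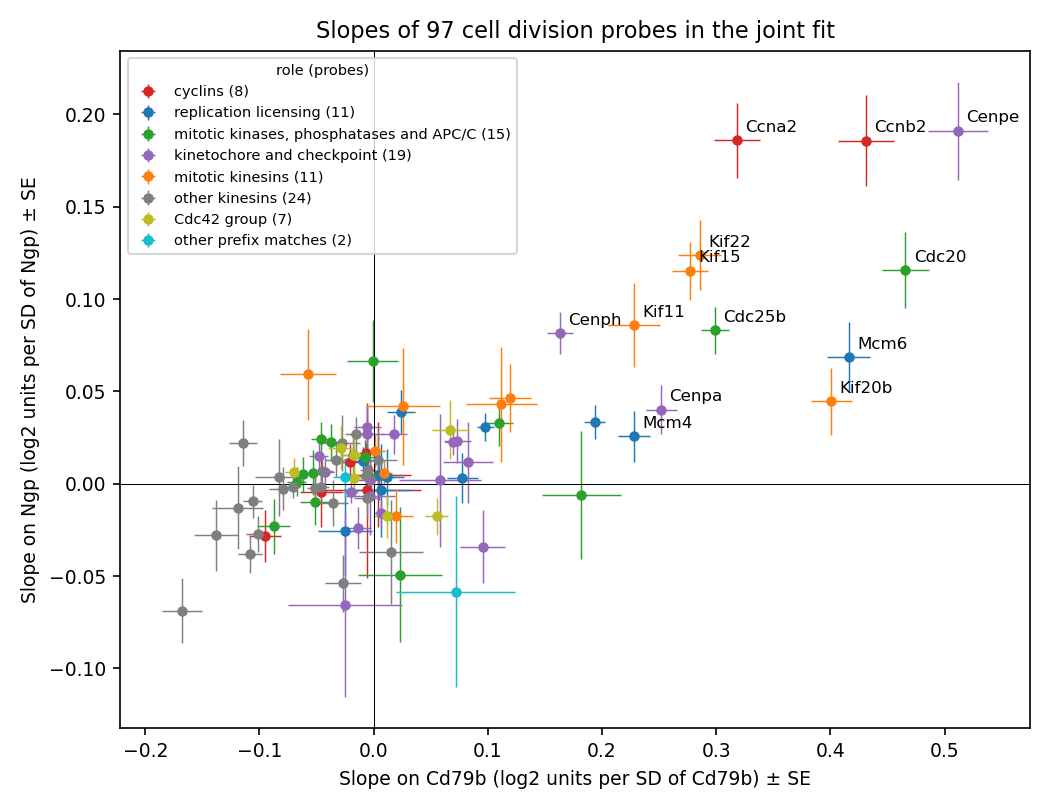
Slope on Cd79b (horizontal axis) and on Ngp (vertical axis) of the 97 probes, in log2 units per SD of the marker, with bars of 1 SE and colours for roles. Cenpe, Ccna2 and Ccnb2 stand highest on Ngp (0.19 each), while Mcm6 and Kif20b lie far right with Ngp slopes of 0.07 and 0.04.

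**Figure D4:**
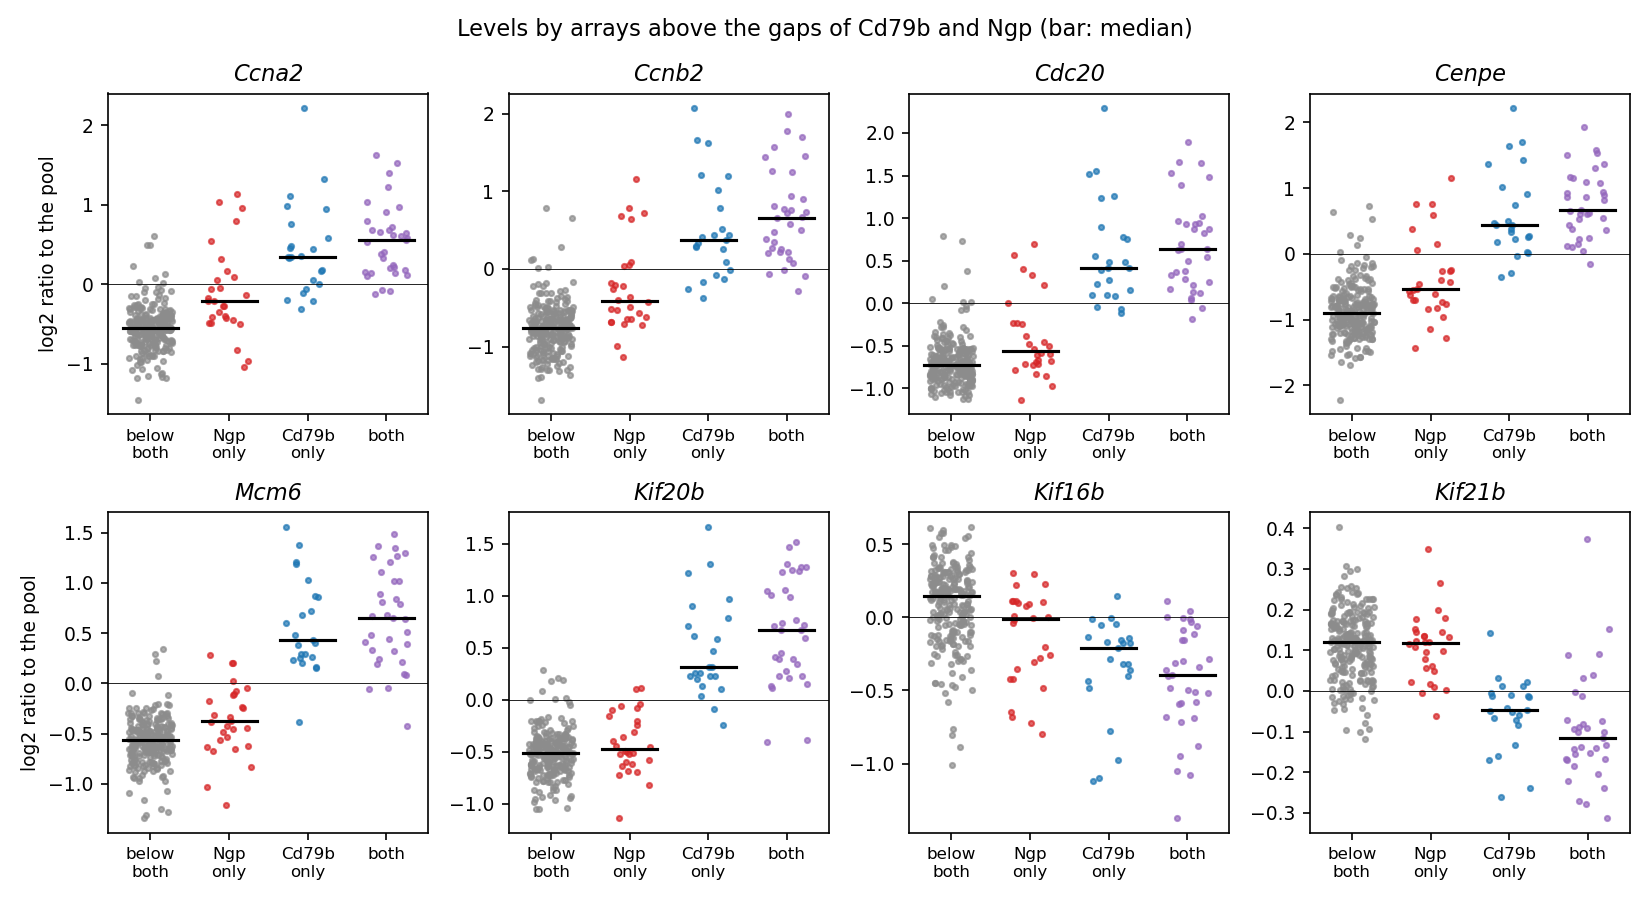
Log2 ratio to the pool (vertical axis) of 8 members on every array, by whether Cd79b and Ngp lie above their gaps, with a bar at each median. The median of Mcm6 is -0.56 on arrays low in both, -0.38 with Ngp only, 0.43 with Cd79b only and 0.65 with both, whereas Kif16b and Kif21b are lowest on the arrays high in both.

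The slopes on Cd79b and Ngp were also compared within each probe. The difference (Cd79b minus Ngp slope) was called at an adjusted p under 0.05 for 51 members, positive for 23 (against 15.5% of all probes) and negative for 28 (against 36.4%). All 20 probes that rose with Cd79b had a larger slope on Cd79b than on Ngp, with adjusted p of at most 0.0441 (limma, Kifc5b). Among these 20 the differences farthest from 0 were 0.36 ± 0.03 for Kif20b (adjusted p = 6.49e-24), 0.35 ± 0.04 for Cdc20 (adjusted p = 7.13e-19), 0.35 ± 0.03 for Mcm6 (adjusted p = 2.32e-21), 0.32 ± 0.05 for Cenpe (adjusted p = 2.11e-10) and 0.25 ± 0.04 for Ccnb2 (adjusted p = 1.62e-07). For Ccna2 it was 0.13 ± 0.03 (adjusted p = 0.000634). This comparison is per SD of each marker and rests on that scale. The 20 probes were also picked by their Cd79b slope in the same fit, which favours a larger slope on Cd79b. With the ranks of the markers in place of their log2 ratios, 3 members had different slopes. The share of all probes in that fit is not given here, so the lower count is not read as particular to the members.

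Because many arrays are high in both markers, each was also followed where the other was low. On the 258 arrays below the Ngp gap, 17 members rose with Cd79b (17.5%, against 7.83% of all probes), all of them among the 20. The Cd79b slope there was 0.34 ± 0.03 for Ccna2, 0.48 ± 0.03 for Cdc20 and 0.43 ± 0.03 for Mcm6. On the 263 arrays below the Cd79b gap, 9 members rose with Ngp (9.28%, against 0.72%): the 8 that followed both and Mcm6 (slope 0.09 ± 0.02). There the Ngp slopes were 0.19 ± 0.02 for Ccna2, 0.20 ± 0.02 for Ccnb2, 0.13 ± 0.01 for Kif15 and 0.13 ± 0.02 for Cdc20. Within the 56 arrays above the Cd79b gap, 17 members rose with the remaining spread of Cd79b (against 9.55%), of which 13 were among the 20, and Cdc25b had a slope of 0.76 ± 0.08. In the 61 arrays above the Ngp gap, 24 rose with Cd79b (against 15.2%), including all 20, and 8 with Ngp (against 0.625%), including 7 of the 8. There 1 probe of Ccne2 fell with both markers (-0.15 ± 0.02 on Cd79b and -0.15 ± 0.04 on Ngp). Where both markers were low, on 235 arrays, 3 members rose with Cd79b (against 1.22%), namely Bub1b, Mcm5 and the probe of Cdc42bpg that was not called over all arrays, and 1, Cenph, with Ngp (against 0.134%).

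The calls on Ngp rested on few animals. Among the 28 arrays high in Ngp only, the 7 of highest Ngp (3.32 to 4.99) held most of the high values of the 8 genes. Ccna2 had a median of 0.79 on these 7 and ran from -0.45 to 1.14, against -1.04 to 0.32 (median -0.27) on the other 21. Ccnb2 lay from -0.51 to 1.16 (median 0.69) on the 7 and from -1.14 to 0.08 (median -0.53) on the 21. The medians on the 7 and on the 21 were 0.33 and -0.66 for Cdc20 and 0.59 and -0.61 for Cenpe. They were, for Kif22, 0.53 and -0.22, for Kif15 0.48 and -0.19, for Cenph 0.28 and -0.09 and for Cdc25b 0.22 and -0.17. These high values are the upper end of the ranges given above for arrays high in Ngp only. For all but Cdc25b, the median of the 7 lay above the highest of the 21. Without these 7 arrays, 0 of the 97 members rose with Ngp over all other arrays (against 0.168% of all probes), although 5 had a positive slope at an adjusted p under 0.05 and 20 (20.6%, against 10.1%) at an unadjusted p under 0.05 (limma). Ccna2 then had an Ngp slope of 0.12 ± 0.02 (partial r 0.265). With the arrays above the Cd79b gap left out too, 3 members rose with Ngp (against 0.203%), namely Ccna2, Cenph and Kif15, and Mcm6 (slope 0.05 ± 0.02) was not called. Of the 20 Cd79b calls, 19 were kept without the 7 arrays and only Cenpl was lost. All 7 lie below the Cd79b gap, so leaving them out says little about how many animals the Cd79b calls rest on. With the arrays above the Cd79b gap left out instead, 3 of the 20 were kept.

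**Figure D5:**
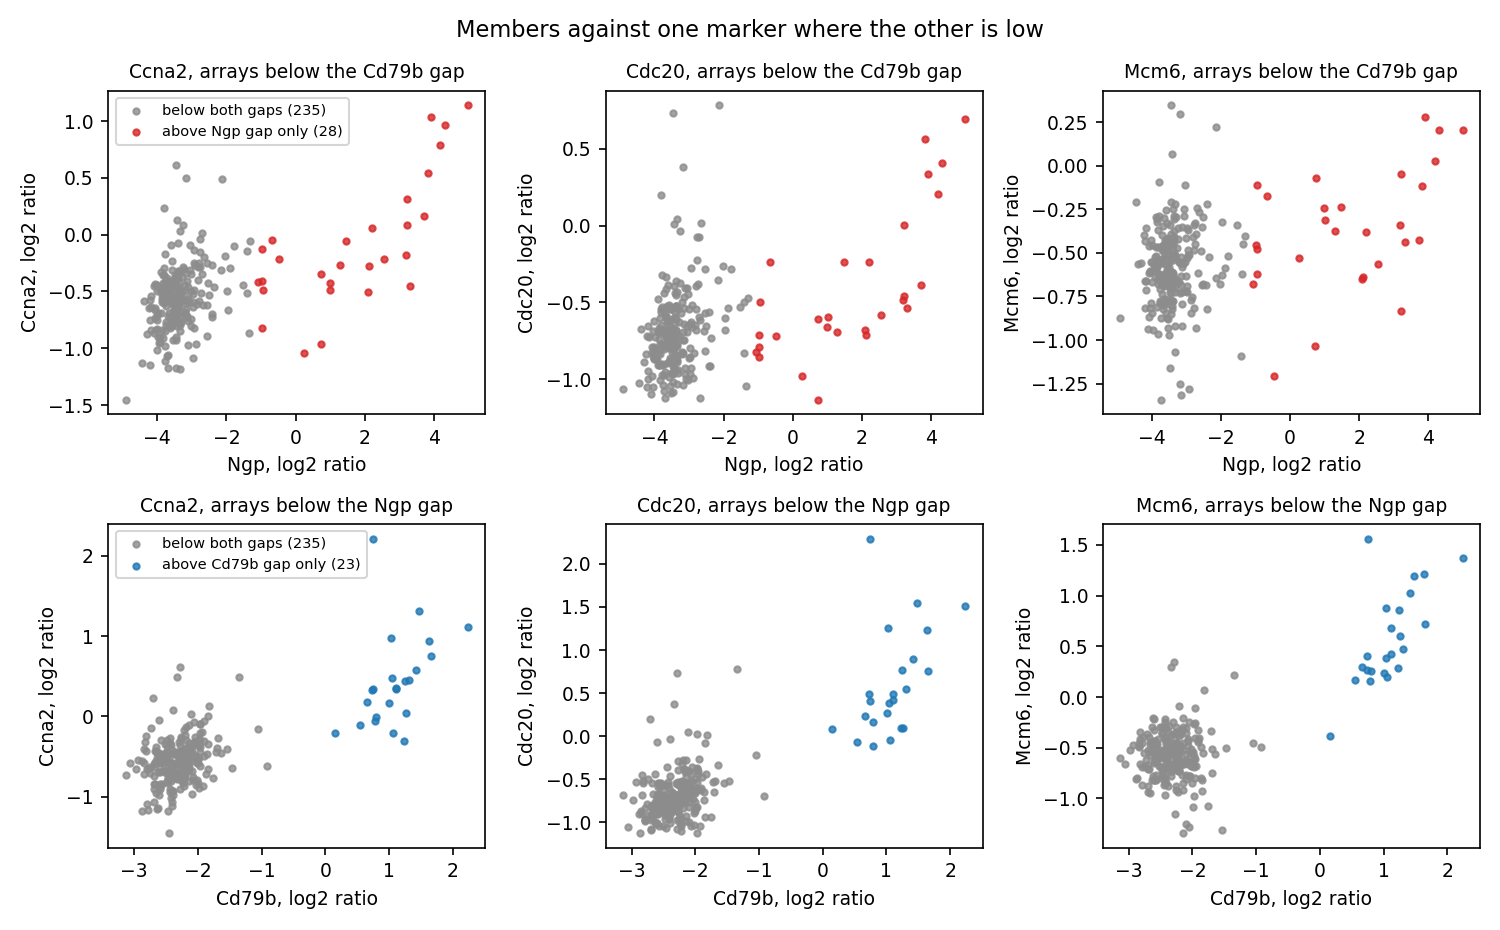
Log2 ratio of Ccna2, Cdc20 and Mcm6 (vertical axes) against Ngp on arrays below the Cd79b gap (upper row) and against Cd79b on arrays below the Ngp gap (lower row), 1 point per array. In the upper row the values above 0 for Ccna2 and Cdc20 lie mainly on the few arrays of highest Ngp, and in the lower row the 23 arrays high in Cd79b (blue) form a separate group.

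Other cell types moved with the markers. Of 9 macrophage probes, 7 rose with Cd79b and 0 with Ngp, and their mean lay between -0.47 and 0.78 on arrays high in Cd79b only, between -0.02 and 1.48 with both, between -1.43 and -0.04 with Ngp only and between -1.45 and 0.58 on arrays low in both. Of 7 T cell probes, 5 rose with Cd79b and 1 fell, and of 3 adipocyte probes 2 rose. Germinal centres are where B cells divide in lymphoid follicles. Of 3 probes listed for them, 2 (Bcl6 and Mybl1) fell with Cd79b (against 22.9% of all probes) and none was called higher (against 12%). The third, Gcsam, went the other way, with a Cd79b slope of 0.07 ± 0.01 that just missed the limit (partial r 0.297). Whether these 3 probes read germinal centre cells in these samples was not tested. Of 6 erythroid probes, 2 rose with Ngp and fell with Cd79b, and all 4 bone probes fell with Cd79b. With macrophage, keratinocyte, erythroid, adipocyte and slow fibre scores added to the fit, 17 of the 20 members still rose with Cd79b (17.5%, against 7.98%), and Cenpl, Kif11 and Kifc5b did not. Of the 8 Ngp calls, 7 were kept, and Cdc20 was lost (slope 0.09, partial r 0.245). In that fit Cenpe (0.20 ± 0.03), Mcm6 (0.14 ± 0.02) and Cdc25b (0.10 ± 0.02) also rose with the macrophage score (3 members, against 4.2%), and 1 probe of Aurkc fell with it (against 1.35%). The share of each cell type in these slopes was not tested. With the mean of the other B cell and granulocyte genes in place of Cd79b and Ngp, all 20 lymphoid calls were kept, but 15 members rose with the granulocyte score (against 13.8% of all probes) and only 3 of the 8 Ngp calls were among them.

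Among members that followed neither marker upward, the kinesins not listed as mitotic were the main group that fell. Of 24 probes of other kinesins, 10 fell with Cd79b (41.7%, against 22.9% of all probes) and none rose, and their median slope was -0.05 against -0.03 for all probes. Kif16b, a motor of early endosomes, lay from -1.01 to 0.62 (median 0.15) on arrays low in both and from -1.37 to 0.11 (median -0.39) on arrays high in both, and its slope was -0.17 ± 0.02 (adjusted p = 2.10e-18, limma). Kif5b, the ubiquitous conventional kinesin (-0.14 ± 0.02), Kif13a, a motor of endosomes (-0.11 ± 0.01), Kif21a, a regulator of microtubule growth (-0.11 ± 0.01), Kifap3, the partner of kinesin-2 (-0.11 ± 0.01), and Kif28 (-0.10 ± 0.01) fell too. Smaller falls were those of Kif1c (-0.08 ± 0.01), Kif21b (-0.07 ± 0.01), Kif5a (-0.05 ± 0.01) and Kif17 (-0.05 ± 0.01). Kif3c, a neuronal kinesin-2, had a slope of -0.12 ± 0.02 that missed the limit (partial r -0.285). After array medians were subtracted, the calls of Kif1c, Kif5a and Kif17 were lost. Over all arrays no member fell with Ngp. The lowest Ngp slopes were -0.07 ± 0.02 for Kif16b, -0.07 ± 0.05 for 1 probe of Bub3, -0.06 ± 0.05 for Ccnb1ip1, -0.05 ± 0.02 for Kif2a and -0.05 ± 0.04 for Cdc27.

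Cdc42 is a GTPase that shapes the actin skeleton and is in the set by its name. A probe for it had a Cd79b slope of 0.06 ± 0.01 with a partial r of 0.298, and the other 0.07 ± 0.02 with 0.229, so neither was called. Its effector kinase Cdc42bpg fell at 1 of 2 probes (-0.07 ± 0.01). Ccnb1ip1, a ubiquitin ligase that binds cyclin B and is not a cyclin, had the largest SD of the 77 probes that followed neither (0.82), followed by 1 probe of Bub3 (0.79), Ccna1 (0.75), Cdc27 (0.58) and 1 probe of Cdc26 (0.58). Ccna1 reached the lower limit of the deposited scale (-6.64) on arrays low in both, and the Bub3 probe reached both limits. Over all members the SD ran from 0.09 to 0.82 with a median of 0.22, against 0.23 for all probes. The 8 probes that followed both markers varied 1.99 times as much over all arrays as on arrays low in both (median ratio), the 12 that followed Cd79b only 1.56 times and the 77 others 1.07 times. A higher ratio for followers is built in, because they were called by the markers and the arrays low in both leave out the high marker values. Of 16 genes with several probes, 8 had probes that differed in a call. In Cdc20, Cenpe, Kifc5b and Mcm7 some probes rose with Cd79b and others did not, and in Aurkc, Ccne2, Cdc26 and Cdc42bpg some fell with it and others did not.

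Cell division genes outside the rule were counted in the same fit. Of 73 probes of 59 further cell division genes, 41 rose with Cd79b (56.2%, against 12% of all probes) and 2 fell (2.74%, against 22.9%), and 7 rose with Ngp (9.59%, against 0.535%), each of which also rose with Cd79b. These were Knstrn and Nusap1 of the spindle, Birc5 and Plk1 of mitosis, and Hmgb2, Asf1b and Uhrf1 of chromatin. Birc5, a subunit of the chromosomal passenger complex, had slopes of 0.59 ± 0.03 on Cd79b and 0.30 ± 0.03 on Ngp. The median slope of the 73 was 0.14 on Cd79b and 0.03 on Ngp. Over all probes tested, 46 followed both markers, of which 8 (17.4%) were members and 7 belonged to this list, together 15 (32.6%).

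On the 235 arrays low in both markers, the members were also fitted on probes labelled as proliferation genes. With Top2a, the topoisomerase of dividing cells, 0 of 97 members rose (against 0.367% of all probes), while 4 had a positive slope at an adjusted p under 0.05 and 7 (7.22%, against 12.1% of all probes) at an unadjusted p under 0.05 (limma). The nearest was Cdc42bpb (0.06 ± 0.01, partial r 0.296). With Mki67, a nuclear antigen of cycling cells, 4 members rose (against 2.61%), namely Kif5c, Cdc25c, Cenpi and Ccne2, none of which followed Cd79b or Ngp upward, and 2, Ccna1 and a probe of Ccnb3, fell. Of the 20 probes that followed Cd79b, 5 had a positive Mki67 slope at an adjusted p under 0.05 (limma) with a partial r below the limit, namely Cenpe (0.10 ± 0.03), Kif20b (0.05 ± 0.02), Cdc20 (0.06 ± 0.02), Ccna2 (0.06 ± 0.02) and Cenph (0.03 ± 0.01). The same count was 1 with Top2a. With a second Top2a probe, Cdc27 and a probe of Ccnb3 rose and 3 members fell, among them Cdc25c (-0.05 ± 0.01) and Ccne2 (-0.11 ± 0.02) at the probes that rose with Mki67. For these calls and for the falls with Mki67 the share of all probes is not given here, so they are not read as above or below it. The 5 genes of largest Top2a slope that were no members were Irs4, Gas5, Phlda3, Dusp23 and Rgs5, and none is on the cell division list. The Irs4 probe had a slope of 0.59 ± 0.01 with a partial r of 0.986 to the Top2a probe. Irs4 lies on chromosome X, the other 4 on chromosome 1 and Top2a on chromosome 11, and what the probe labelled Top2a reads was not tested. The named gene of largest Mki67 slope that was no member was Ighv7-4, an immunoglobulin gene segment (0.84 ± 0.07), and what the Mki67 probe reads was not tested either. Over all arrays the Cd79b slope was -0.11 ± 0.04 for the first Top2a probe, 0.05 ± 0.05 for the second and 0.07 ± 0.02 for Mki67. None of these probes was called with Cd79b or Ngp. Whether they track dividing cells here was not tested, so these fits cannot show whether members moved with proliferation.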

How the data were processed

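The authors deposited 1 log10 ratio per probe and array, limited to between -2 and 2, and the labels name Cy3 for the animal and Cy5 for the pool. The base was read from these limits and the direction from a Y-linked gene. Background correction and normalisation are not given in the sources used here. Values were converted to log2 with no further scaling, and 0.654% were blank. Probes with values on at least 80% of arrays were tested (23190, or 23188 without the 2 markers).

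limma 3.58.1 in R 4.3.3 (lmFit, eBayes) fitted each probe on Cd79b and Ngp together, with Benjamini-Hochberg adjustment over all probes. The script was tested on simulated data. Gaps were set where a split in 2 gave the largest sum of squares between sides, with at least 15 arrays on each. Arrays hold no count of molecules, so the number of arrays limits the precision. Other settings were array medians, quantile normalisation, limits, markers, ranks, covariates, subsets of arrays and the call rule.

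Symbols came from the platform table, and 95 of 97 member probes matched RefSeq (GRCm38.p6) by gene ID. The exceptions are 2 of 4 Bub3 probes. Members and lists were chosen with earlier results of these data known. Every probe called higher was named, with full values for the 10 of largest slope on each marker and the 5 of largest difference. Of the rest, the 5 of largest SD, the 5 lowest slopes on each marker and genes with disagreeing probes were named.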

Additional observations from a re-analysis of the deposited data

How the results depend on the processing

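Of the members, 20 followed Cd79b, 8 followed Ngp, 51 had different slopes and 77 followed neither. Array medians, quantile normalisation, no filter on blanks, removal of values at the limits, of 20 arrays of outlying SD or of 2 arrays of doubtful number (the second of the pair with 1 animal number, and 1 whose labels give different numbers) left all of these counts within 1.5 times of those values. The count following Ngp was 15 with the other B cell and granulocyte genes (15.5%, against 13.8% of all probes). It was 18 with each marker fitted alone, 17 with no minimum partial r and 1 with a minimum of 0.4. Where a setting has no share of all probes here or above, its counts are not read as above or below that share. The count of different slopes was 3 with ranks, 32 on the 160 arrays of lower animal number and 21 above the Ngp gap. On arrays below both gaps 3 members followed Cd79b, 1 followed Ngp and 7 differed, and above the Cd79b gap 0 followed Ngp and 7 differed. Settings added after seeing the data gave 3 following Cd79b and 22 differing below the Cd79b gap, 0 following Ngp and 8 differing below the Ngp gap, 0 following Ngp over all arrays without the 7 of highest Ngp, and 3 following Cd79b, 3 following Ngp and 16 differing below the Cd79b gap without those 7. For Top2a the count was 1 without arrays of outlying SD, 4 with Mki67, 4 with no minimum partial r, 2 with a minimum of 0.2, 1 among the arrays of higher animal number, and, added later, 2 with the other Top2a probe and 2 with Rrm2 (blank values of these set to the probe's median).

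Of the Cd79b slopes called over all arrays, those that changed sign did so on arrays below or above the Cd79b gap. Below both gaps they were 0.0564 for Aurkc, -0.0623 for Kif11, -0.0192 for Kifc5b, -0.1503 for Mcm2, 0.0405 for Kif17, -0.0778 for Mcm4, 0.0082 for Kif28, 0.1205 for Bub1 and -0.0307 for Mcm6. Below the Cd79b gap they were 0.0578 for Aurkc, -0.0134 for Kif11, -0.138 for Mcm2, 0.0429 for Kif17, 0.0045 for Kif5a, -0.0745 for Mcm4, 0.1176 for Bub1 and -0.0252 for Mcm6, and without the 7 arrays of highest Ngp 0.0565 for Aurkc, -0.1358 for Mcm2, 0.0388 for Kif17, -0.0702 for Mcm4, 0.1157 for Bub1 and -0.01 for Mcm6. Above the Cd79b gap they were 0.0395 for Bub1 and 0.049 for Kif1c. The cause was not tested. No paired analysis was possible because the labels give 1 group.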

Other observations

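Of the 46 probes that followed both Cd79b and Ngp, 19 had a symbol and belonged to neither cell division list. Among them were genes of blood progenitors and platelets, such as Myb (slopes 0.73 on Cd79b and 0.41 on Ngp), Gfi1 (0.72 and 0.30), Clec1b (1.01 and 0.41) and Itga2b (0.29 and 0.22), the histone genes H3c4 (0.39 and 0.20) and H1f5 (0.14 and 0.12), and further genes of division, Cdk1 (0.23 and 0.09), CDCA5 (0.55 and 0.18) and Cit (0.20 and 0.12). Vpreb1, a gene of precursor B cells, had slopes of 0.13 and 0.17. These names were chosen after their values were seen.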
